A study of Xenopus laevis with 27 samples.

Results

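The vacuolar-type proton pump (V-ATPase) is a rotary enzyme that acidifies lysosomes, endosomes and secretory vesicles, and in some cells it sits in the outer membrane and pumps protons out of the cell. Its V1 domain hydrolyses ATP in the cytoplasm and turns a rotor that drives protons through the V0 domain in the membrane, and accessory proteins help to assemble and place the enzyme. Most subunits come from widely expressed genes, but in mammals some have an isoform of restricted expression, such as B1 and a4 in the acid-secreting intercalated cells of the kidney. In the skin of Xenopus larvae V-ATPase is known from ionocytes, and proton pumping by the enzyme is known to be needed for tail regeneration in Xenopus tadpoles.

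All rows of the count table whose symbol begins with atp6v or atp6ap were taken, 43 of 29776 rows. They belong to 26 genes. Xenopus laevis is an allotetraploid frog with an L and an S subgenome, and 17 of the genes had both an L and an S copy in the table, while 9 had 1 copy. By role, 23 rows belonged to V1, 13 to V0 and 7 to the accessory proteins. A filter on low counts kept 40 of the 43 rows, among 22268 genes tested. The 3 that it left out were atp6ap1l.L with 12 reads over all libraries, atp6v1c2.S with 48 and atp6v1g2.S with 15.

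The libraries were bulk RNA-seq of amputated tails, collected at 0, 30, 60 and 90 minutes (mpa), at 3 and 6 hours (hpa) and at 1, 3 and 7 days (dpa) after amputation, with 3 libraries (A, B and C) per time and RNA of 20 pooled embryos in each. Tails at 0 mpa had been amputated too. No uncut tails of later age were among the samples, so that effects of amputation and of growing older cannot be told apart. The labels place all embryos at the regenerative stage and name no strain or genetic change. They speak of biological triplicates but not of clutches, and the p-values therefore reflect only how much these libraries varied.

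Of the 27 libraries, 24 held between 4186706 and 6332675 reads on genes. Library 6 hpa C held 1207557, 90 mpa C 367958 and 7 dpa C 19187, so that 1 read in 7 dpa C was worth 17.3 reads per 1000000 (CPM) and values at 7 dpa rest mainly on libraries A and B. Libraries 1 dpa B and 3 dpa B were of low complexity, with 16267 and 18672 genes found in 1000000 reads. Levels are in CPM scaled by TMM factors, which were 1.31, 1.30 and 3.02 in 7 dpa A, B and C, against 0.957, 0.839 and 0.907 at 0 mpa. The factor of 7 dpa C was estimated on few reads and is uncertain, as are levels scaled by it. Before that scaling, members took 0.239%, 0.227% and 0.302% of the reads at 7 dpa, against 0.302%, 0.232% and 0.283% at 0 mpa.

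Up to 1 day after amputation no V-ATPase member passed at any of 6 times, when between 0.377% and 4.56% of all genes did. At 3 and 7 dpa every member that passed in edgeR was lower than at 0 mpa. At 3 dpa 1 of 40 had fallen, when 4.98% of all genes were lower and 4.24% were higher. At 7 dpa 11 of 40 had fallen, when 5.31% of all genes were lower and 2.63% were higher. The members whose calls at 7 dpa held under all alternatives tried were atp6v0a4.L, atp6v1b1.L and atp6v1g3.L, whose isoforms are of restricted expression in mammals, and the A-like atp6v1al.L. For the catalytic A subunit, the log2 fold changes at 7 dpa were 0.17 ± 0.35 for atp6v1a.L and -0.46 ± 0.37 for atp6v1a.S (SE, edgeR adjusted p = 0.901 and 0.628). The ratios of a4 to a1 and a4 to a2 changed over the 9 times. That of d2 to d1 passed the joint test too, but at no single time, and 13 of 32 alternatives kept it. No L to S ratio passed. In bulk tissue, fewer cells of a type and less RNA per cell cannot be told apart, and neither can time after amputation and age.

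**Figure D1:**
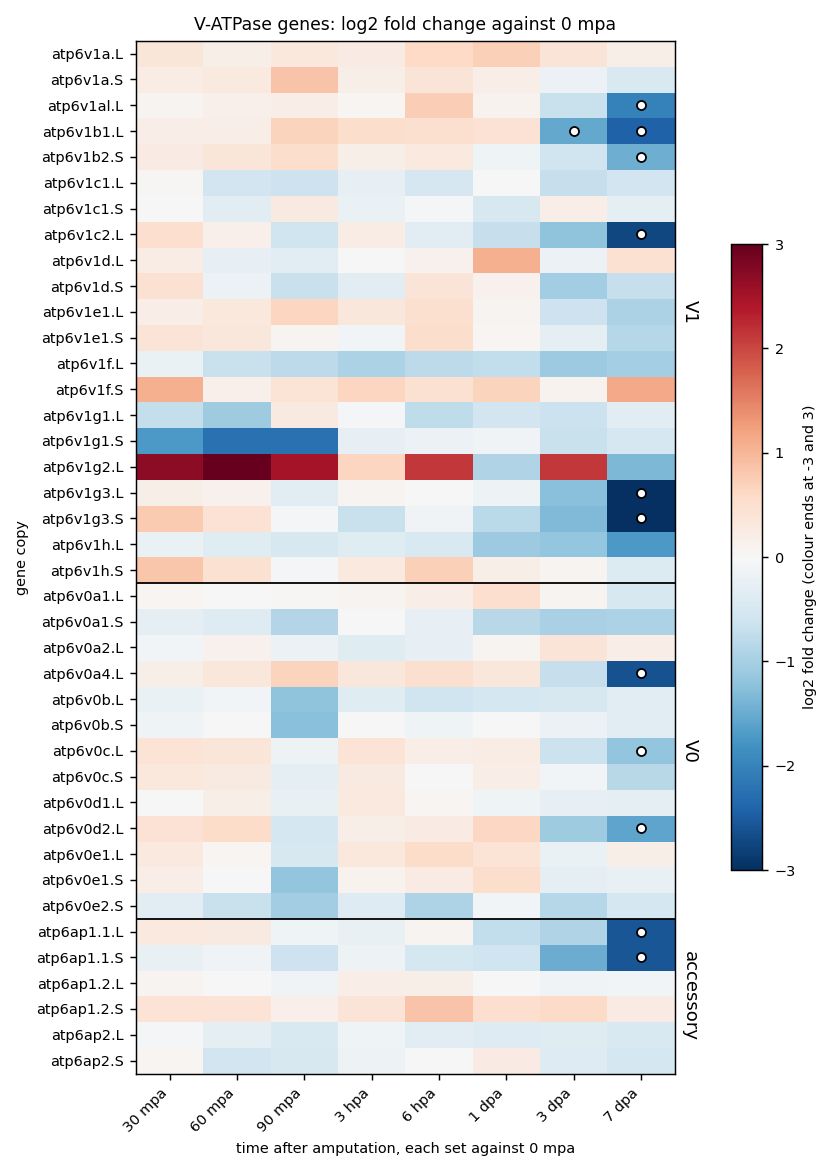
Log2 fold change of the 40 tested V-ATPase gene copies (rows) at each of 8 later times over 0 mpa (columns). Blue is lower and red is higher than at 0 mpa, and white dots mark calls with an adjusted p under 0.05, of which 1 is at 3 dpa and 11 are at 7 dpa, all of them lower. Of all genes tested, 4.98% were lower and 4.24% higher at 3 dpa, and 5.31% lower and 2.63% higher at 7 dpa.

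The first 6 comparisons ask whether transcripts of the pump changed early in the regeneration course. At 30 mpa 0 of 40 members passed edgeR's quasi-likelihood test, when 0.377% of all genes tested did, and 0 members had an unadjusted p under 0.05. At 60 mpa 0 of 40 passed, against 1.15% of all genes, and again 0 had an unadjusted p under 0.05. At 90 mpa 0 passed, against 3.38% of all genes, and 3 had an unadjusted p under 0.05. At 3 hpa 0 passed (3.43% of all genes, 0 members with an unadjusted p under 0.05), at 6 hpa 0 (3.66%, 2 members) and at 1 dpa 0 (4.56%, 2 members). DESeq2 also called 0 members at each of these times. Among 40 members, 0 calls are near these background shares.

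The c subunit is a proteolipid whose copies form the rotating ring that carries protons. Its gene copy atp6v0c.L had 1267, 813 and 965 CPM at 30 mpa and 1004, 1023 and 606 CPM at 6 hpa, against 843, 700.1 and 760.0 CPM at 0 mpa. The libraries of both times overlapped those at 0 mpa, and the log2 fold changes of 0.40 ± 0.36 and 0.19 ± 0.36 did not pass (SE; edgeR adjusted p = 1 and 0.893). The a4 gene atp6v0a4.L had 158, 163 and 286 CPM at 6 hpa, against 133, 103 and 198 CPM at 0 mpa. Its libraries overlapped too, with the highest value in the shallow 6 hpa C, and its log2 fold change was 0.47 ± 0.34 (SE, adjusted p = 0.624).

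Some early calls appeared when libraries were left out. The accessory gene atp6ap1.2.S, for Ac45, which helps to assemble and place the pump, had 127, 103 and 163 CPM at 6 hpa, against 78.8, 56.2 and 80.7 CPM at 0 mpa. All libraries at 6 hpa were above all those at 0 mpa. Its log2 fold change of 0.85 ± 0.34 (SE) did not pass (edgeR adjusted p = 0.200), but it passed when 90 mpa C and 7 dpa C were left out (adjusted p = 0.0213) and when all 5 libraries of few reads or low complexity were (0.0345). At 90 mpa, atp6v1g3.L had 10.5, 6.78 and 54.4 CPM, the last value from the shallow C, against 19.5, 22.2 and 24.0 CPM at 0 mpa, and it passed as lower without those 5 libraries (log2 fold change -1.35, adjusted p = 0.0165). Without 90 mpa A, atp6v0b.S and atp6v1f.L passed as lower at 90 mpa (adjusted p = 0.0449 and 0.0224). The first had 16.5, 6.20 and 0 CPM at 90 mpa, against 20.2, 28.2 and 20.9 CPM at 0 mpa. The second had 47.1, 5.62 and 0 CPM at 90 mpa, against 49.7, 34.3 and 25.5 CPM at 0 mpa. Both calls thus rest on 90 mpa B and the shallow C, and for atp6v1f.L the omitted library lay within the range at 0 mpa.

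At 3 dpa 1 member of 40 passed, and it was lower, when 4.98% of all genes tested were lower and 4.24% were higher. This was atp6v1b1.L, which encodes the B1 isoform of the nucleotide-binding B subunit of V1. It had 19.8, 15.8 and 15.3 CPM at 3 dpa, against 56.0, 32.0 and 60.4 CPM at 0 mpa. Every library at 3 dpa was below every library at 0 mpa. The log2 fold change was -1.54 ± 0.37 (SE, edgeR adjusted p = 0.00285), and 14 of 14 alternatives kept the call, with values between -1.78 and -1.37.

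Other members were below 0 mpa at 3 dpa without passing. Of the 40, 32 had a fitted log2 fold change below 0, with a median of -0.53, whereas 48.0% of all genes tested were below 0 and their median was 0.05. RLE scaling and DESeq2 also put 32 below 0. The d2 gene atp6v0d2.L had 14.6, 4.49 and 11.4 CPM at 3 dpa, against 21.1, 22.2 and 21.2 CPM at 0 mpa. The accessory gene copy atp6ap1.1.S had 16.96, 1.17 and 19.2 CPM at 3 dpa, against 41.3, 24.96 and 38.6 CPM at 0 mpa. In both, all libraries at 3 dpa were below those at 0 mpa, and the low-complexity 3 dpa B was the lowest. With the 5 libraries of few reads or low complexity left out, 6 members passed as lower at 3 dpa, namely atp6v1b1.L, atp6v0a4.L, atp6v1al.L, atp6v1b2.S, atp6v1e1.S and atp6v1g3.L. Leaving out 90 mpa C and 7 dpa C gave 3. Shares of all genes called in these fits are not given here, so the higher counts are not read as particular to the members.

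At 7 dpa 11 members were lower and 0 were higher, when 5.31% of all genes tested were lower and 2.63% were higher. By role, 6 of 21 tested rows of V1, 3 of 13 of V0 and 2 of 6 of the accessory genes were lower. Leaving out 1 library of either time gave between 5 and 9 calls, with 5 without 0 mpa A, 0 mpa C or 7 dpa B and 7 without 7 dpa A. Shares of all genes called in those fits, and in DESeq2, are not given here. Of the 40 members, 34 had a fitted log2 fold change below 0, with a median of -0.56, against 50.4% of all genes and a median of -0.01. RLE scaling put 34 members below 0 and DESeq2 33. DESeq2 called 12 members, of which 11 were lower and 1 was higher. The higher one was atp6v1d.L, of the rotor subunit D, which had 9.85, 3.63 and 243 CPM at 7 dpa, the last from 14 reads in the shallow C, against 18.5, 17.4 and 16.4 CPM at 0 mpa. Libraries 7 dpa A and B were below all at 0 mpa and C was above them; the log2 fold change was 2.79 in DESeq2 (adjusted p = 0.0498) and 0.47 ± 1.12 in edgeR (SE, adjusted p = 0.921). The summed level of all 43 rows was 1827, 1751 and 1005 CPM at 7 dpa, against 3163, 2768 and 3124 CPM at 0 mpa. The value of 7 dpa C rests on 58 reads and a TMM factor of 3.02. Before scaling, the same rows took 0.239%, 0.227% and 0.302% of the reads at 7 dpa. At 0 mpa they took 0.302%, 0.232% and 0.283%, so that the unscaled shares overlapped.

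Among the V0 genes, atp6v0a4.L encodes the a4 isoform of the large membrane subunit that holds the paths by which protons reach and leave the ring. In humans, loss of a4 causes distal renal tubular acidosis. The gene had 31.4, 16.4 and 17.3 CPM at 7 dpa, where the last value is 1 read, and 69.3, 131 and 69.7 CPM at 3 dpa, against 133, 103 and 198 CPM at 0 mpa. Every library at 7 dpa was below every library at 0 mpa, and those at 3 dpa overlapped them. The log2 fold change at 7 dpa was -2.62 ± 0.41 (SE, edgeR adjusted p = 3.01e-06), and 14 of 14 alternatives kept the call, with values from -3.12 to -2.27.

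The other V0 genes that passed at 7 dpa were atp6v0d2.L and atp6v0c.L. The gene atp6v0d2.L encodes d2, an isoform of the subunit that couples the rotor to the ring, known in mice from osteoclasts. It had 6.14, 7.69 and 17.3 CPM at 7 dpa (1 read in C), against 21.1, 22.2 and 21.2 CPM at 0 mpa. The libraries did not overlap, but the log2 fold change of -1.58 ± 0.51 (SE, edgeR adjusted p = 0.0432) was lost under 6 of 14 alternatives: with no filter on low counts, and without any 1 of the libraries at 0 mpa, 7 dpa A or 7 dpa B. The copy atp6v0c.L had 388, 365 and 225 CPM at 7 dpa, against 843, 700.1 and 760.0 CPM at 0 mpa. These libraries did not overlap either, but the log2 fold change of -1.17 ± 0.37 (SE, adjusted p = 0.0348) was lost in each of the 6 fits that left out 1 library and in the fit of the 6 libraries alone. The S copy atp6v0c.S had 249, 244 and 104.01 CPM at 7 dpa, against 405, 361 and 404 CPM at 0 mpa. All its libraries at 7 dpa were below those at 0 mpa, and its log2 fold change of -0.84 ± 0.35 did not pass (SE, adjusted p = 0.142).

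Among the V1 genes, atp6v1b1.L had 8.42, 9.57 and 17.3 CPM at 7 dpa (1 read in C), against 56.0, 32.0 and 60.4 CPM at 0 mpa. The libraries did not overlap, the log2 fold change was -2.42 ± 0.44 (SE, edgeR adjusted p = 4.84e-05), and 14 of 14 alternatives kept the call. The other B isoform, B2, is the widely expressed one in mammals and had an S copy in the table. This gene, atp6v1b2.S, had 206, 159.9 and 17.3 CPM at 7 dpa (1 read in C), against 388, 386 and 506 CPM at 0 mpa. It did not overlap between the times, its log2 fold change was -1.47 ± 0.36 (SE, edgeR adjusted p = 0.00413), and it lost the call in the fit of the 6 libraries alone (adjusted p = 0.0795).

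The gene atp6v1al.L carries the name of an A-like subunit, and no role is given to it here. It had 20.8, 12.04 and 0 CPM at 7 dpa, against 76.9, 55.7 and 59.8 CPM at 0 mpa. Its libraries did not overlap, its log2 fold change was -2.02 ± 0.41 (SE, edgeR adjusted p = 0.000325), and 14 of 14 alternatives kept the call. The A subunit itself holds the catalytic sites. Its copy atp6v1a.L had 151, 152 and 69.3 CPM at 7 dpa, against 129, 111 and 127 CPM at 0 mpa, and atp6v1a.S had 55.5, 57.3 and 17.3 CPM at 7 dpa, against 48.8, 78.2 and 90.2 CPM at 0 mpa. Both copies had overlapping libraries, and their log2 fold changes were 0.17 ± 0.35 and -0.46 ± 0.37 (SE; adjusted p = 0.901 and 0.628). For atp6v1a.L, 7 dpa A and B were above all libraries at 0 mpa, and the overlap rests on 4 reads in 7 dpa C.

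Subunits G and E form the peripheral stalks that hold the stator in place, and G3 is an isoform of the kidney in mammals. The copy atp6v1g3.L had 2.28, 3.05 and 0 CPM at 7 dpa, against 19.5, 22.2 and 24.0 CPM at 0 mpa. The copy atp6v1g3.S had 4, 2 and 0 reads at 7 dpa, against 30, 15 and 21 reads at 0 mpa, or 0.571, 0.290 and 0 CPM, against 7.21, 3.78 and 4.53 CPM. Neither copy overlapped between the times, which rests on 7 dpa A and B, since 1 read in 7 dpa C is 17.3 CPM. The log2 fold change of the L copy was -3.05 ± 0.63 (SE, edgeR adjusted p = 0.000370), and 14 of 14 alternatives kept it. That of the S copy was -3.52 ± 1.11 (SE, adjusted p = 0.0339), and it was lost without 0 mpa A, 0 mpa C, 7 dpa A or 7 dpa B.

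The G1 copy atp6v1g1.L had 5.28, 5.08 and 0 CPM at 7 dpa, against 9.61, 7.56 and 1.51 CPM at 0 mpa. These libraries overlapped, and the log2 fold change was -0.34 ± 0.90 (SE, edgeR adjusted p = 0.930). G2, an isoform of the brain in mammals, was read too rarely for a comparison, with 116 reads of atp6v1g2.L over all libraries.

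Subunit C bridges V1 and V0. The C2 gene copy atp6v1c2.L, of restricted expression in mammals, had 29, 0 and 0 reads at 7 dpa, against 101, 20 and 56 reads at 0 mpa, or 4.14, 0 and 0 CPM, against 24.3, 5.04 and 12.1 CPM. All libraries at 7 dpa were below the lowest at 0 mpa, and those at 0 mpa were spread widely. The 0 of the shallow 7 dpa C, where 1 read is 17.3 CPM, says little. The log2 fold change of -2.74 ± 0.88 (SE, edgeR adjusted p = 0.0430) was lost under 6 of 14 alternatives: RLE scaling, leaving out both 90 mpa C and 7 dpa C, and leaving out 0 mpa A, 0 mpa C, 7 dpa B or 7 dpa C. The C1 copies did not pass, at -0.58 ± 0.43 for atp6v1c1.L and -0.28 ± 0.52 for atp6v1c1.S (SE; adjusted p = 0.563 and 0.888).

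The remaining calls at 7 dpa were both copies of atp6ap1.1, a gene for Ac45. The copy atp6ap1.1.L had 1.71, 2.03 and 0 CPM at 7 dpa, against 10.3, 6.81 and 16.2 CPM at 0 mpa. The copy atp6ap1.1.S had 9.56, 2.47 and 0 CPM at 7 dpa, against 41.3, 24.96 and 38.6 CPM at 0 mpa. No library at 7 dpa reached the lowest at 0 mpa in either copy, but the 0 of 7 dpa C, where 1 read is 17.3 CPM, says little. The log2 fold changes were -2.58 ± 0.81 for atp6ap1.1.L and -2.57 ± 0.78 for atp6ap1.1.S (SE; edgeR adjusted p = 0.0334 and 0.0353). Both calls were lost without 0 mpa A, 0 mpa C or 7 dpa B, that of the L copy also without 7 dpa A and that of the S copy also without 7 dpa C. The other Ac45 gene had 105, 130.4 and 0 CPM of atp6ap1.2.L at 7 dpa, against 106, 113 and 102 CPM at 0 mpa, and its copies did not pass, at -0.08 ± 0.37 for atp6ap1.2.L and 0.26 ± 0.35 for atp6ap1.2.S (SE; adjusted p = 0.965 and 0.833).

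**Figure D2:**
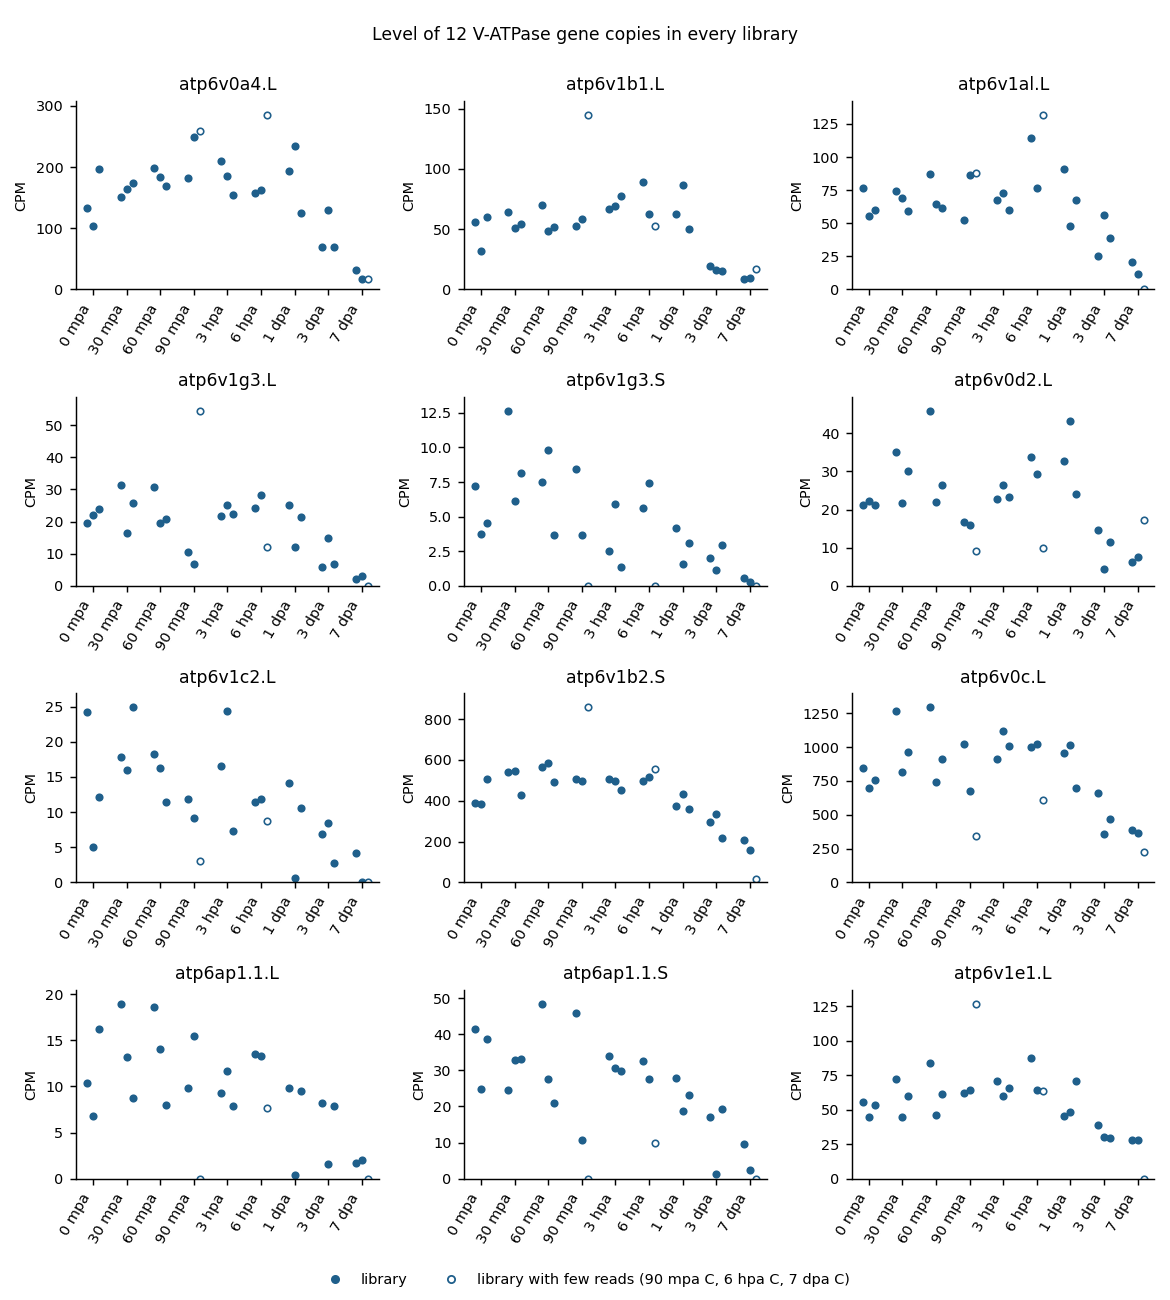
Level in CPM (vertical axes, linear from 0) of 12 gene copies in all 27 libraries over the 9 times (horizontal axes), where each point is 1 library and open points are the libraries with few reads. For atp6v0a4.L the points at 7 dpa lie between 16.4 and 31.4 CPM, below the lowest value of 103 CPM at 0 mpa.

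Members that did not pass at 7 dpa ranged from -1.73 for atp6v1h.L, of the H subunit that controls V1, to 1.13 for atp6v1f.S, of the rotor subunit F. The first had 3.14, 3.77 and 0 CPM at 7 dpa, against 15.1, 13.1 and 5.40 CPM at 0 mpa, and its fold change had an SE of 0.73 (edgeR adjusted p = 0.162). Its libraries did not overlap, which rests on 7 dpa A and B, since 1 read in 7 dpa C is 17.3 CPM. The F copy had 5.28, 2.76 and 0 CPM at 7 dpa, against 1.44, 1.51 and 2.16 CPM at 0 mpa, with an SE of 1.202 (adjusted p = 0.752). For this copy, 7 dpa A and B were above all libraries at 0 mpa, and 7 dpa C, with 0 reads, was below them. A further 5 members had an unadjusted p under 0.05 without passing, namely atp6v1h.L, both copies of atp6v1e1, atp6v0a1.S and atp6v0c.S, all of them below 0 mpa.

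Over the 9 times jointly, 8 of 40 members passed, when 15.8% of all genes tested did, so that the count is near the background. They were atp6v1b1.L (edgeR adjusted p = 2.32e-07), atp6v0a4.L (9.23e-07), atp6v1al.L (0.000151), atp6v1b2.S (0.00125), atp6v1g3.L (0.00243), atp6v0d2.L (0.00304), atp6v0c.L (0.0103) and atp6v1e1.L (0.0191). The E1 gene atp6v1e1.L, for a peripheral stalk subunit, passed jointly and at no single time. It had 39.1, 30.4 and 29.8 CPM at 3 dpa and 28.0, 28.4 and 0 CPM at 7 dpa, against 55.3, 44.9 and 53.7 CPM at 0 mpa. Libraries of both later times were below those at 0 mpa, and its joint call was lost without 3 dpa C, 7 dpa A or 7 dpa B. Of the other 7 joint calls, that of atp6v1g3.L was lost without 7 dpa A (adjusted p = 0.0603), and 6 were kept in 33 of 33 alternatives.

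The rows were also grouped by what is known of their isoforms in mammals: 10 rows of isoforms of restricted expression (a4, d2, e2, B1, C2, G2 and G3) and 32 other rows taken as widely expressed, with atp6v1al.L in neither group. This grouping was made after values had been seen and is a description. Of all genes tested, 5.31% were lower at 7 dpa, and the median log2 fold change of all was -0.01. Of the 8 restricted rows tested, 6 were lower at 7 dpa, with a median log2 fold change of -2.52. Of the 31 widely expressed rows tested, 4 were lower (atp6v1b2.S, atp6v0c.L and the copies of atp6ap1.1), with a median of -0.46. The calls of these 4 rows and of atp6v0d2.L, atp6v1c2.L and atp6v1g3.S were each lost under 1 or more alternatives. The restricted rows summed to 59.0, 41.8 and 52.0 CPM at 7 dpa, against 264, 197 and 331 CPM at 0 mpa, and the widely expressed rows to 1747, 1697 and 953 CPM at 7 dpa, against 2821, 2515 and 2733 CPM at 0 mpa. Since 1 read in 7 dpa C is 17.3 CPM, its sums rest on few reads.

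Whether isoforms of a subunit changed relative to each other was tested on the reads of both in the same library, so that library size and scaling drop out. Shares of reads depend on transcript length as well as on abundance, and only their change over time is read here. Of 11 isoform pairs, 3 changed over the 9 times in edgeR's quasi-likelihood test, when 4% of all 6674 pairs tested did (267 pairs). Nearly all pairs tested were L and S copies of 1 gene, so that this share is not a like measure for pairs of different genes. The pairs of a4 with a1 and of a4 with a2 also share the reads of atp6v0a4.L and are not independent.

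The a4 isoform fell relative to a1 and a2, the other isoforms of the membrane subunit among the rows taken by symbol. The a3 gene, tcirg1.L, has another kind of symbol and was not in these ratio tests. Reads of atp6v0a4.L made up 52.6% and 42.6% of the reads of atp6v0a4.L and atp6v0a1.L in 7 dpa A and B, and 64.2%, 78.3% and 69.7% at 3 dpa, against 75.9%, 78.4% and 87.5% at 0 mpa. Library 7 dpa C had under 10 reads of the pair and was given no share. The shares at 7 dpa were below all at 0 mpa, and those at 3 dpa overlapped them. The log2 ratio of a4 to a1 changed by -2.20 ± 0.40 at 7 dpa (SE, edgeR adjusted p = 0.000810), where 1.45% of all pairs passed. The joint test gave an adjusted p of 0.000192, and 32 of 32 alternatives kept the joint call.

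Against a2, the share of atp6v0a4.L was 70.7% and 56.2% in 7 dpa A and B, against 91.7%, 90.5% and 95.8% at 0 mpa. Both values at 7 dpa were below all at 0 mpa. The log2 ratio changed by -2.89 ± 0.64 (SE, edgeR adjusted p = 0.0147 at 7 dpa and 0.00709 jointly), and the joint call was lost without 7 dpa B (0.147). The a1 and a2 genes themselves did not pass at 7 dpa in the main fit. The S copy of a1, atp6v0a1.S, was not in these ratios. It had 20.8, 24.2 and 0 CPM at 7 dpa, against 54.6, 41.1 and 27.8 CPM at 0 mpa, without overlap. With the 5 libraries of few reads or low complexity left out, it passed as lower (log2 fold change -0.84, edgeR adjusted p = 0.0491). The copy atp6v0a1.L had 28.3, 22.0 and 0 CPM at 7 dpa, against 42.3, 28.5 and 28.3 CPM at 0 mpa, and atp6v0a2.L had 13.0, 12.8 and 0 CPM at 7 dpa, against 12.02, 10.8 and 8.63 CPM at 0 mpa. The log2 fold changes were -0.48 ± 0.40 and 0.20 ± 0.60 (SE; adjusted p = 0.643 and 0.938), and the ratio of a2 to a1 did not pass jointly (adjusted p = 1).

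For the d isoforms, the share of atp6v0d2.L in the reads of atp6v0d2.L and atp6v0d1.L was 18.2%, 19.5% and 18.3% at 0 mpa, 27.7%, 34.8% and 21.2% at 1 dpa, 12.9%, 8.04% and 11.4% at 3 dpa and 7.95% and 8.14% in 7 dpa A and B. Every share at 1 dpa was above those at 0 mpa, and every share at 3 and 7 dpa was below them. The joint test passed (edgeR adjusted p = 0.0371), but none of these times did (0.670 at 1 dpa, 0.373 at 3 dpa and 0.227 at 7 dpa), and 13 of 32 alternatives kept the joint call. The d1 gene atp6v0d1.L had 71.1, 86.7 and 69.3 CPM at 7 dpa, against 94.9, 91.5 and 94.3 CPM at 0 mpa, and its log2 fold change of -0.27 ± 0.44 did not pass (SE, adjusted p = 0.868).

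In 4 further pairs, added once the isoforms in the table were known, 2 changed. The share of atp6v1al.L in the reads of atp6v1al.L and atp6v1a.L was 12.1% and 7.34% in 7 dpa A and B, against 37.3%, 33.4% and 31.9% at 0 mpa. These did not overlap, and the log2 ratio changed by -2.32 ± 0.40 (SE, edgeR adjusted p = 0.000416 at 7 dpa and 0.000761 jointly), with the joint call kept in 32 of 32 alternatives. The share of atp6v1b1.L in the reads of both B isoforms was 6.25%, 4.50% and 6.52% at 3 dpa and 3.93% and 5.65% in 7 dpa A and B, against 12.6%, 7.66% and 10.7% at 0 mpa. No share at 3 or 7 dpa reached those at 0 mpa. The joint test of this pair passed (adjusted p = 0.00188) and the change at 7 dpa alone did not (-1.15 ± 0.33, SE, adjusted p = 0.0705). With limma on log2 ratios the joint call was lost (adjusted p = 0.825), while the other 31 alternatives kept it.

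The G3 to G1 and C2 to C1 ratios did not pass. The share of atp6v1g3.L in the reads of atp6v1g3.L and atp6v1g1.L was 30.2% and 37.5% in 7 dpa A and B, against 66.9%, 74.6% and 94.1% at 0 mpa. These did not overlap, and the log2 ratio changed by -3.002 ± 1.01 (SE, edgeR adjusted p = 0.191 at 7 dpa and 0.170 jointly). For atp6v1c2.L against atp6v1c1.L the change at 7 dpa was -2.49 ± 1.06 (SE, adjusted p = 0.446). The ratio of atp6ap1.1 to atp6ap1.2 changed by -2.64 ± 0.77 for the L copies and -3.15 ± 0.85 for the S copies and did not pass (SE; adjusted p = 0.0889 and 0.0636).

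**Figure D3:**
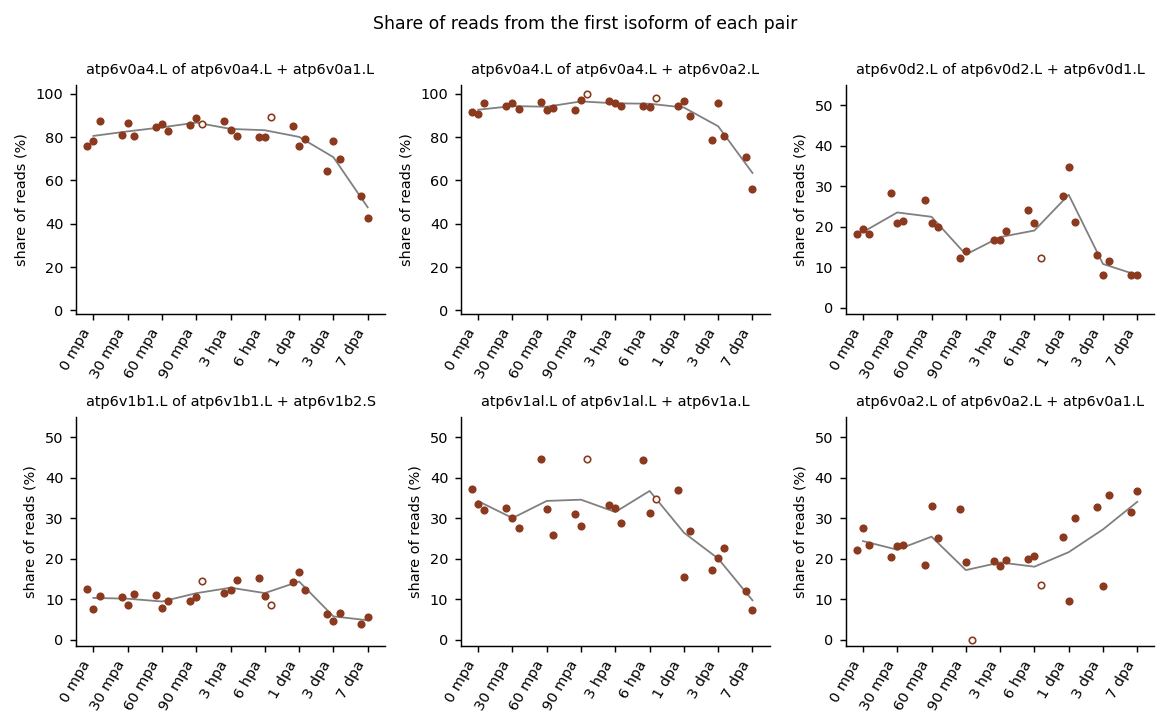
Share of reads (%) from the first-named isoform of 6 pairs over the 9 times, where points are libraries with at least 10 reads of the pair, open points are libraries with few reads and lines join the means of each time. The share of atp6v0a4.L against atp6v0a1.L is 52.6% and 42.6% in the 2 scored libraries at 7 dpa, against 75.9%, 78.4% and 87.5% at 0 mpa.

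No change of an L to S ratio was detected. Of the 17 genes with both copies, 0 had a ratio that changed over the 9 times, against 4% of all pairs tested, and 0 had an unadjusted p under 0.05 in edgeR's joint test; limma called 0 as well. The smallest p was that of atp6v0c (0.0543, adjusted 0.434). Its L copy made up 61.0%, 59.9% and 68.4% of the reads of both copies at 7 dpa and 64.0%, 46.4% and 58.3% at 3 dpa, against 67.5%, 66.0% and 65.3% at 0 mpa. The shares in 7 dpa A and B and all shares at 3 dpa were below those at 0 mpa. That of the shallow 7 dpa C was above them and rests on 13 reads of the L copy and 6 of the S copy. The change of the log2 ratio at 7 dpa was -0.32 ± 0.26 for atp6v0c, 0.44 ± 0.99 for atp6v1g3 and 0.27 ± 0.93 for atp6ap1.1 (SE; edgeR adjusted p = 0.915, 1 and 1), so that in genes with few reads sizeable changes would not have been detectable.

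The copies differed in which had more reads. The L copy had more than the S copy in every library with at least 10 reads for 4 genes (atp6ap2, atp6v1c2, atp6v1f and atp6v1g3), and the S copy had more in every such library for 1 gene, atp6v1h. The other 12 were mixed, with median L shares between 28.6% for atp6ap1.1 and 100% for atp6v1g2, the last over 6 libraries. For atp6ap2, the prorenin receptor that also serves the pump as an accessory protein, the median L share was 88.9%. Lengths of the copies were not compared, and reads that match both copies could be split between them or lost in the authors' counting, so these shares are uncertain.

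**Figure D4:**
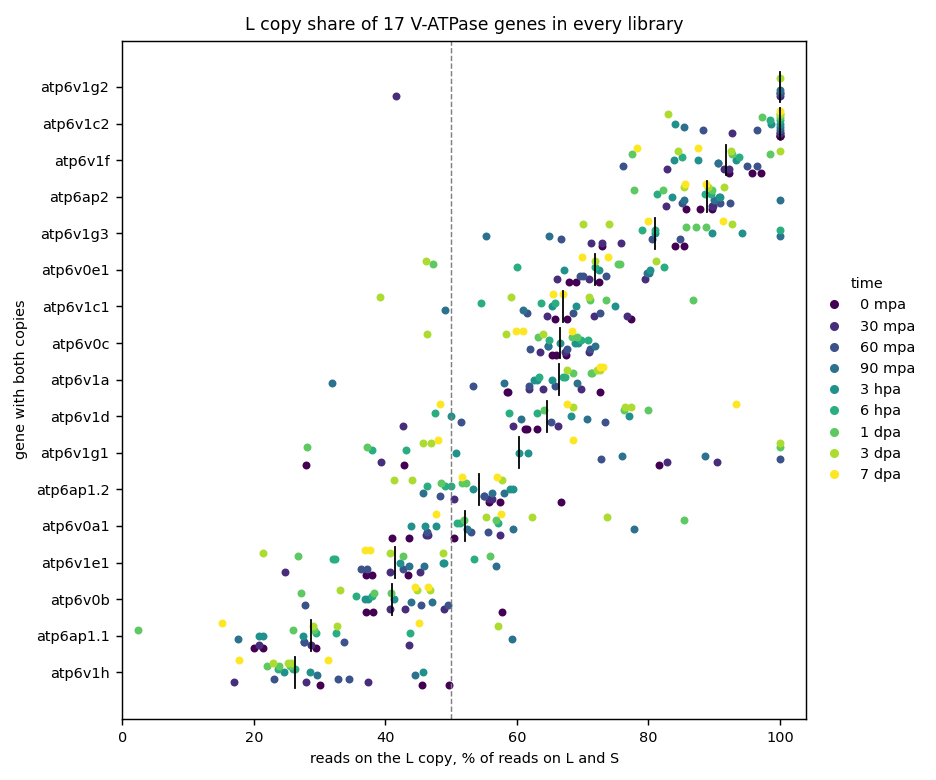
Share of the L copy in the reads of both copies (%, horizontal axis) of the 17 genes with both copies (rows), where each point is a library with at least 10 reads of the pair, coloured by time, and black bars are medians. Medians run from 26.3% for atp6v1h to 100% for atp6v1c2 and atp6v1g2.

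Genes that work with the pump were taken from lists. That of assembly factors and regulators also held tcirg1.L, the gene of the a3 subunit isoform. Of 19 tested assembly factors and regulators, 1 was lower and 0 were higher at 7 dpa, when 5.31% of all genes tested were lower, so that the count is near the background. This was tbc1d24.2.L, a TLDc-domain protein gene (log2 fold change -1.64 ± 0.45, SE, edgeR adjusted p = 0.0123). In the joint test 3 of 19 passed, a share near the 15.8% of all genes, namely tbc1d24.2.L (adjusted p = 0.000716), rogdi.L (0.00526), of the assembly complex known as RAVE in yeast, and rnasek.S (0.0148), whose product is known to associate with the pump.

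Of 53 tested lysosome genes, 0 were lower and 6 were higher at 7 dpa, with a median log2 fold change of 0.17, when 5.31% of all genes were lower, 2.63% were higher and their median was -0.01. The cathepsin genes ctsk.L and ctsz.S were higher at 7 dpa by 1.91 ± 0.44 and 1.41 ± 0.40 on the log2 scale (SE; edgeR adjusted p = 0.00160 and 0.0167). The autophagy receptor gene sqstm1.L was higher at 6 hpa by 2.18 ± 0.38 (SE, adjusted p = 4.59e-05) and did not pass at 7 dpa. The MiT transcription factors, known in mammals to drive lysosome and V-ATPase genes, and the lysosomal platform of mTORC1 gave 20 tested genes, of which 0 were called at 7 dpa and 2 jointly, against 15.8% of all genes jointly. The copy tfe3.S was higher at 3 hpa by 1.42 ± 0.38, at 6 hpa by 1.30 ± 0.38 and at 3 dpa by 1.29 ± 0.38 (SE; adjusted p = 0.0175, 0.0370 and 0.0210), and tfe3.L passed jointly (adjusted p = 0.00918).

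Of 31 tested genes of other proton and bicarbonate transport, 9 were lower and 0 higher at 3 dpa, when 4.98% of all genes were lower, and 9 were lower and 0 higher at 7 dpa, when 5.31% were. Of the 9 at 7 dpa, 6 were also on the ionocyte marker list. The log2 fold change at 7 dpa was -3.22 ± 0.45 for the anion exchanger gene slc4a1.S and -3.59 ± 0.43 for the carbonic anhydrase gene ca2.S (SE; edgeR adjusted p = 2.22e-07 and 3.78e-09).

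Some markers of proton-secreting ionocytes were lower at the late times too, as were markers of other cell types given below. Of 14 tested, 6 were lower at 3 dpa and 8 at 7 dpa, with 0 higher at both, against 4.98% and 5.31% of all genes lower. At 7 dpa 12 of the 14 had a log2 fold change below 0 and 2 above. At 90 mpa and at 6 hpa 1 marker each was higher, when 3.38% and 3.66% of all genes were called and no V-ATPase member was. No marker row was at 0 in every library. Their summed level over 15 rows was 213, 327 and 192 CPM at 3 dpa and 199.98, 146 and 34.7 CPM at 7 dpa, against 841, 462 and 694 CPM at 0 mpa. Neither later time overlapped 0 mpa, but 1 read in 7 dpa C is 17.3 CPM. The highest means at 0 mpa among the tested rows were those of ca2.L (207 CPM), slc4a1.S (99.2), ca2.S (86.9) and slc4a1.L (78.7). These rows weigh most in the sum, and it is not a measure of ionocytes alone. The L copy of the gene of the ionocyte regulator Foxi1, foxi1.L, had 15.3, 22.4 and 9.22 CPM at 3 dpa and 4.14, 2.90 and 0 CPM at 7 dpa, against 47.3, 43.9 and 32.4 CPM at 0 mpa. Its libraries did not overlap either, and its log2 fold change at 7 dpa was -3.56 ± 0.49 (SE, edgeR adjusted p = 1.76e-07). The S copy, foxi1.S, was not called lower at 3 or 7 dpa. It had 13.4, 22.4 and 6.48 CPM at 3 dpa, against 7.45, 14.9 and 13.0 CPM at 0 mpa, with overlap. At 7 dpa it had 5.28, 1.74 and 0 CPM. At 90 mpa it had 32.9, 28.3 and 136 CPM and at 6 hpa 18.5, 47.1 and 64.4 CPM, all above those at 0 mpa. Of the list, 8 genes were also on the list of proton and bicarbonate transport, and 2 (slc4a1.L and slc4a1.S) were also on the erythrocyte list. The part of ionocytes in the lower V-ATPase levels was not tested.

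**Figure D5:**
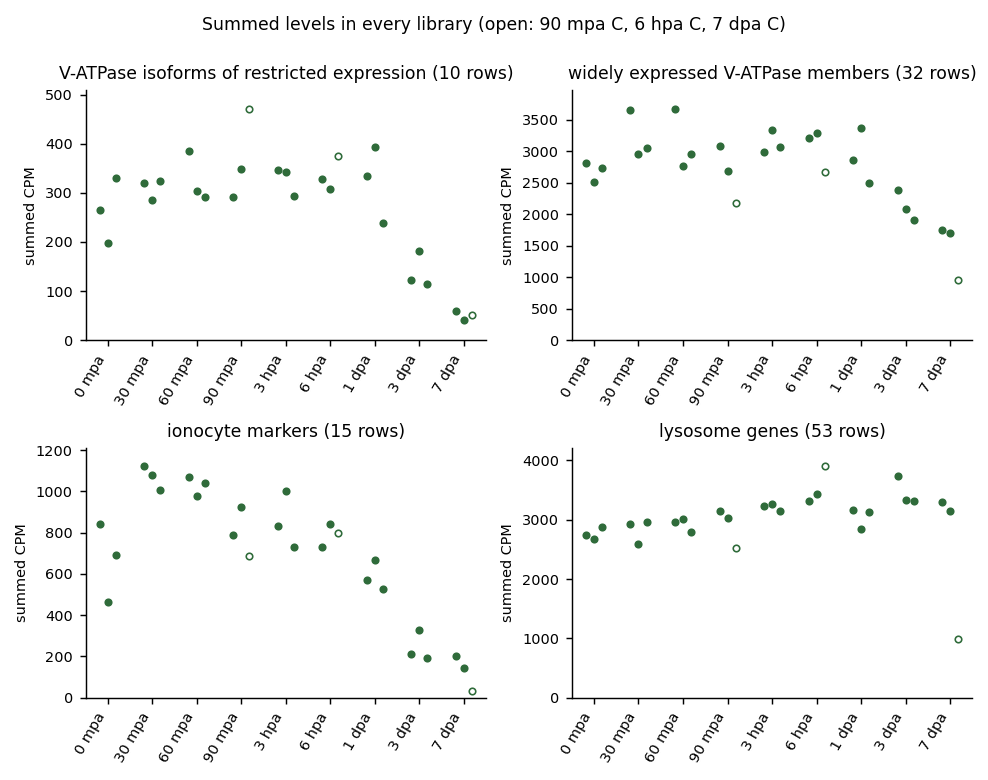
Summed CPM (vertical axes, linear from 0) in all 27 libraries over the 9 times, for the V-ATPase rows of restricted and of wide expression, for 15 ionocyte marker rows and for 53 lysosome rows. The lysosome rows sum to 3296, 3141 and 988 CPM at 7 dpa, against 2742, 2674 and 2872 CPM at 0 mpa, and the restricted V-ATPase rows to 59.0, 41.8 and 52.0 CPM at 7 dpa, against 264, 197 and 331 CPM at 0 mpa.

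Markers of other cell types were read against the 5.31% of all genes that were lower and the 2.63% that were higher at 7 dpa. Lower at 7 dpa were 7 of 8 tested markers of skeletal muscle, 5 of 6 of erythrocytes, 1 of 1 of goblet cells, 3 of 10 of neurons, 2 of 9 of notochord and 3 of 10 of epidermis, while 5 of notochord and 2 of epidermis were higher. Of multiciliated cells 1 of 7, of leukocytes 1 of 10 and of kidney duct 0 of 2 were lower, which in lists this short does not set them apart from all genes. The muscle markers summed to 1561, 1637 and 1682 CPM at 7 dpa, against 29234, 47717 and 30629 CPM at 0 mpa, and those of goblet cells to 40.4, 20.7 and 34.7 CPM at 7 dpa, against 787, 705 and 686 CPM at 0 mpa. Neither overlapped between the times, and the part of these cell types in the V-ATPase levels was not tested.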

How the data were processed

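Tails of Xenopus laevis were sampled at 9 times after amputation, with 3 libraries per time. Per the labels' protocols, 100 ng of total RNA of 20 embryos went into each library (Lexogen SENSE Total RNA-Seq kit) and was read as pairs of 76 bases on a NextSeq 500. Per the submitters' processing notes, the tools included HTSeq 0.6.1p1 and STAR 2.7.9a, as well as R 4.1.0 with DESeq2 1.32.0, in unstated roles. Genome build, annotation and strand setting: not given in the sources used here. Every test used the raw read counts per gene that the authors deposited for all 27 libraries. They also deposited a table of 25 libraries whose signal equals the count divided by a size factor, and it was used only for that check.

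The counts were fitted in edgeR 4.0.16 (R 4.3.3) with TMM scaling, filterByExpr by time and the robust quasi-likelihood test, in 1 model over 27 libraries. Each later time was set against 0 mpa, and the 9 times were also tested jointly. Benjamini-Hochberg adjustment ran over all 22268 genes tested, and a call is an adjusted p under 0.05. CPM use TMM-scaled totals, and the SE of a log2 fold change comes from the F statistic. Total counts per library set the precision, which is lowest for 7 dpa C. Ratios of copies and isoforms were tested on counts of both in the same library, with library effects, a ratio per time and a trended dispersion, adjusted over 6674 pairs. The trended dispersion was chosen after a first look with a common value, and fits without 1 library reused the trend of all libraries. The steps were tested on simulated data.

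Alternatives were RLE scaling, no filter, DESeq2 1.42.0, limma 3.58.1 for ratios, a replicate block, copies summed, fits of 6 libraries alone and fits without libraries. The members and lists were chosen with earlier results of these data known. Values by library are given for members called in any comparison or in a pair that changed. Up to 3 genes per list, those with the smallest joint p, were to be named. For the transport list 1 of these is not reported here. The rule's choice of members by level per length could not be applied without transcript lengths, so levels are not compared between genes. Other members named were chosen after their values were seen. All 43 symbols matched the RefSeq gene table.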

Additional observations from a re-analysis of the deposited data

How the results depend on the processing

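The number of V-ATPase members called depended on which libraries entered. At 90 mpa, where 0 were called, 1 was lower when 5 libraries of few reads or low complexity were left out, and fits without 1 library gave 0 to 2. At 3 hpa the 6 libraries alone gave 1, atp6v1f.L, which was lower. At 6 hpa 1 was higher with 90 mpa C and 7 dpa C left out, and 1 with all 5 left out. At 3 dpa, where 1 was called, no filter on low counts gave 2, leaving out those 2 libraries gave 3 and leaving out the 5 gave 6, and fits without 1 library gave 1 to 2. At 7 dpa, where 11 were called, fits without 1 library gave 5 to 9, while DESeq2 gave 12 (11 lower and atp6v1d.L higher), RLE scaling 10 and the fit without the 5 libraries 16. The joint count of 8 was 13 without the 5 libraries. The 3 isoform pairs became 1 to 3 without 1 library, with 1 left without 7 dpa B, and the 2 added pairs became 1 with limma and 4 without the 5 libraries. Shares of all genes or pairs called in these fits are not given here, so the counts are not read against a background. The cause of the changes in count was not tested. None of the 12 log2 fold changes of called members that were refitted changed sign. RLE scaling and DESeq2 turned the sign of the members' median log2 fold change at 3 hpa, 6 hpa and 1 dpa, where it was 0.07, 0.11 and 0.03, and they moved the median of all genes by -0.10 to -0.15 there. With the letters A to C as a replicate block, 11 members were called at 7 dpa, 1 at 3 dpa, 0 at the 6 earlier times and 10 jointly, with 2 isoform pairs, 0 L and S pairs and 2 added pairs. Deviations of libraries of the same letter correlated between -0.063 and 0.076, and 13 of 27 libraries correlated best with their own letter, so the letters were not taken to pair the samples. Depth limits the values at 7 dpa most, since 7 dpa C held 58 reads of members.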
